A study of Mus musculus with 10 samples.

Results

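The nuclear genes for subunits of oxidative phosphorylation were taken from the count table by symbol: those starting with Nduf, Uqcr or Atp5, those starting with Cox followed by a number from 4 to 8, and Sdha, Sdhb, Sdhc, Sdhd and Cyc1. After 2 pseudogene symbols were dropped, 96 of the 25239 symbols in the table were members. By symbol, 40 belonged to complex I, 8 were complex I assembly factors (Ndufaf), 4 belonged to complex II, 9 to complex III, 18 to complex IV and 17 to complex V. Ndufa4 was counted with complex I by its symbol, although its protein is known as a subunit of complex IV. Genes encoded by mitochondrial DNA were not analysed here.

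The study measured gene expression by RNA sequencing of 10 libraries of mouse Leydig cells, which make the testosterone of the testis. MLTC-1 cells, a line grown from a mouse Leydig tumour, received hymeglusin, which blocks HMG-CoA synthase (n = 3), or DMSO as control (n = 3). Primary Leydig cells, with no treatment, came from testes of mice aged 24 months (n = 2) or 2 months (n = 2). The sources used here name no strain, no way of isolation, and no dose or duration of hymeglusin. A single tumour line stands for the treated cells.

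Oxidative phosphorylation makes most of the ATP of a respiring cell. Complexes I and II pass electrons to ubiquinone, complex III passes them to cytochrome c, complex IV passes them to oxygen, and complex V uses the proton gradient that complexes I, III and IV build to make ATP. In Leydig cells, the first step of steroid synthesis takes place in mitochondria. Several complex IV subunits exist as a form found in most tissues and a form of heart and muscle or of the testis: Cox6a2, Cox7a1 and Cox8b are known from heart and muscle, and Cox6b2, Cox7b2 and Cox8c from testis.

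Promoters of 6 members are shown because respiratory genes are known targets of the factors NRF1, GABPA and YY1, and because these members moved or stood at the extremes of level below. Each window holds the 250 bases before and the 50 bases after the transcript start in RefSeq (GRCm38.p6), read 5′ to 3′ on the gene's strand. The windows lie for Sdhb at chr4:140961021-140961320 (plus strand), Uqcrc1 at chr9:108936398-108936697 (plus strand), Ndufaf4 at chr4:24897833-24898132 (plus strand), Cox6a1 at chr5:115348909-115349208 (minus strand), Cox7a1 at chr7:30183921-30184220 (plus strand) and Cox6b2 at chr7:4753045-4753344 (minus strand). Capitals mark matches to GCATGCGC (NRF1) or CCGGAAG (the ETS core bound by GABPA), on either strand. The motif AAGATGGC (YY1) has no match in these 6 windows.
Sdhb: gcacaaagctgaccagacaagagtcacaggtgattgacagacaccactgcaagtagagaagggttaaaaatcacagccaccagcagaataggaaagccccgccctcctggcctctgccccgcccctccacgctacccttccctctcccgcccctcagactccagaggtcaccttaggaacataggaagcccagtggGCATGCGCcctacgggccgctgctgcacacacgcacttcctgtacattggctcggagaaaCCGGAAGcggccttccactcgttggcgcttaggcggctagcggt
Uqcrc1: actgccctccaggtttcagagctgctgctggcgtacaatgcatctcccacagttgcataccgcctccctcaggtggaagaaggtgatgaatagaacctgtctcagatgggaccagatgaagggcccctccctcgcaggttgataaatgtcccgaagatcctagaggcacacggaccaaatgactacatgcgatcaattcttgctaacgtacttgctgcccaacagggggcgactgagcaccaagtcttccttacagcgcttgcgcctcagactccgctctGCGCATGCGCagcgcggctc
Ndufaf4: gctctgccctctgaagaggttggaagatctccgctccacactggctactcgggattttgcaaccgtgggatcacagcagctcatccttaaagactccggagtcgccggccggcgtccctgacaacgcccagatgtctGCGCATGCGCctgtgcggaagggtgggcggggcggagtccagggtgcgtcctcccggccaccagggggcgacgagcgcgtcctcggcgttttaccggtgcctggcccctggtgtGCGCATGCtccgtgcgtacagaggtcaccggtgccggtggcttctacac
Cox6a1: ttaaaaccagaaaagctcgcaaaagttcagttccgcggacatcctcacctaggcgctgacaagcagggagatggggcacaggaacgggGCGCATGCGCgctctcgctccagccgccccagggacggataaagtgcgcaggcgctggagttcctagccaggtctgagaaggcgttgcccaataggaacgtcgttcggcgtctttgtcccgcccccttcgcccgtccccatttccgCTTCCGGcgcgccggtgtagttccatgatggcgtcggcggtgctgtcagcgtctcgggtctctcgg
Cox7a1: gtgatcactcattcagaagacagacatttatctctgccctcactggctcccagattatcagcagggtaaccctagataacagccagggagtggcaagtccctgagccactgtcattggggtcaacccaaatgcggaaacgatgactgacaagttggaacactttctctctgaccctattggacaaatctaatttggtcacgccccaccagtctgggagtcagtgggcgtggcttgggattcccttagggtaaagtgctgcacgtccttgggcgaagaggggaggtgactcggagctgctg
Cox6b2: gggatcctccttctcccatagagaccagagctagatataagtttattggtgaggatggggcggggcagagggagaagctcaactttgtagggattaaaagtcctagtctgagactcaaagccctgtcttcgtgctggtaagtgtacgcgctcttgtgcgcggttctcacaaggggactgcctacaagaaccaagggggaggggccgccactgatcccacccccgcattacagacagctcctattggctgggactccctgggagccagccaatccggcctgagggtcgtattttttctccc
The windows of Sdhb, Uqcrc1, Ndufaf4 and Cox6a1 held 1, 2, 3 and 2 NRF1 matches, where a palindromic site counts once on each strand. Sdhb and Cox6a1 each held 1 ETS match. Cox7a1 and Cox6b2 held 0 matches. Atp5c1, Ndufv3, Uqcrfs1 and Ndufb4, also among the members that fell most with hymeglusin, are not shown. Their windows held 0 matches to the 3 motifs.

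A promoter window was available for 74 members. The NRF1 motif was in 11 of them (14.9%) and in 601 of 15189 other protein-coding genes (4.0%). The ETS motif was in 18 (24.3%), against 13.1% of the other protein-coding genes, and the YY1 motif in 10 (13.5%), against 3.4%. At least 1 of the 3 motifs was in 33 members (44.6%), against 18.8% of the other genes. A match is a run of letters and not a measured binding site.

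Total counts per library ranged from 17407456 to 34787330, and the members took 1.34% to 1.41% of them with hymeglusin, 1.46% to 1.53% with DMSO, 3.32% and 2.37% at 24 months and, at 2 months, 1.58% and 1.44%. The top 10 genes by count took 9.65% and 6.64% of counts at 24 months and at most 4.8% in each of the other 8 libraries. The 24-month libraries also differed most from each other, with a chi-square per degree of freedom over genes of 134, against 18.9 between the 2-month libraries. All 8 Leydig cell markers were detected in every group, and their sum was 28180.1 and 18423 CPM (counts scaled to library size) at 24 months, against 21060.3 and 19130.3 CPM at 2 months. With age 1 of the 8 was called higher and 1 lower, and single markers moved in opposite directions. Insl3 had 5569 and 1957 CPM at 24 months, against 1117 and 1065 CPM at 2 months. Lhcgr had 223 and 291 CPM against 751 and 646 CPM. Hsd3b6 had at most 3.2 CPM in MLTC-1 cells. Transcripts of other testis cells were present in the primary cells: 12 spermatid markers summed to 13924 and 7809.7 CPM at 24 months, against 2796 and 3941 CPM at 2 months. In bulk RNA, fewer cells of a type and less RNA per cell cannot be told apart. Whether replicates came from different cultures or mice is not in the labels, so p-values measure only the spread between these libraries, which may be technical.

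Levels that compare genes are given as CPM per kilobase of the principal transcript, scaled over all 10 libraries. Summed over the 96 members, the level was 14119.9, 13253 and 14475 with hymeglusin, 15247, 14598 and 14799 with DMSO, 58066 and 31725 at 24 months and, at 2 months, 18113 and 15932. The hymeglusin libraries all lay below the DMSO libraries, and the 24-month libraries lay above all others and differed from each other by more than any other pair of replicates. The ratio of group means was 0.937 for hymeglusin over DMSO, 2.64 for 24 over 2 months and 0.874 for DMSO-treated MLTC-1 over 2-month primary cells. On plain CPM this last ratio was 0.991.

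The complexes did not share 1 ratio. For hymeglusin over DMSO, the summed level of complex II had the lowest ratio, 0.824, with 473, 468 and 480.5 CPM per kb in hymeglusin libraries and 577, 582 and 567 in DMSO libraries. Complex IV had a ratio of 0.999, and its hymeglusin libraries (3309, 3085 and 3478 CPM per kb) spanned its DMSO libraries (3394, 3195 and 3290.4). Complexes V, III and I and the assembly factors had ratios of 0.903, 0.91, 0.962 and 0.936. For 24 over 2 months the order was different: complex IV had the highest ratio, 3.18, and complex II the lowest, 1.51, with 2.03 to 2.87 in the other sets. Cox6a1 alone held 5783 of the mean 14593 CPM per kb of complex IV at 24 months. The ratios hold the trend with transcript length described below. With an offset for that trend, the median log2 fold change with age was 0.17 in complex IV and 0.14 in complex II. The ratios are descriptions, with no test.

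**Figure D1:**
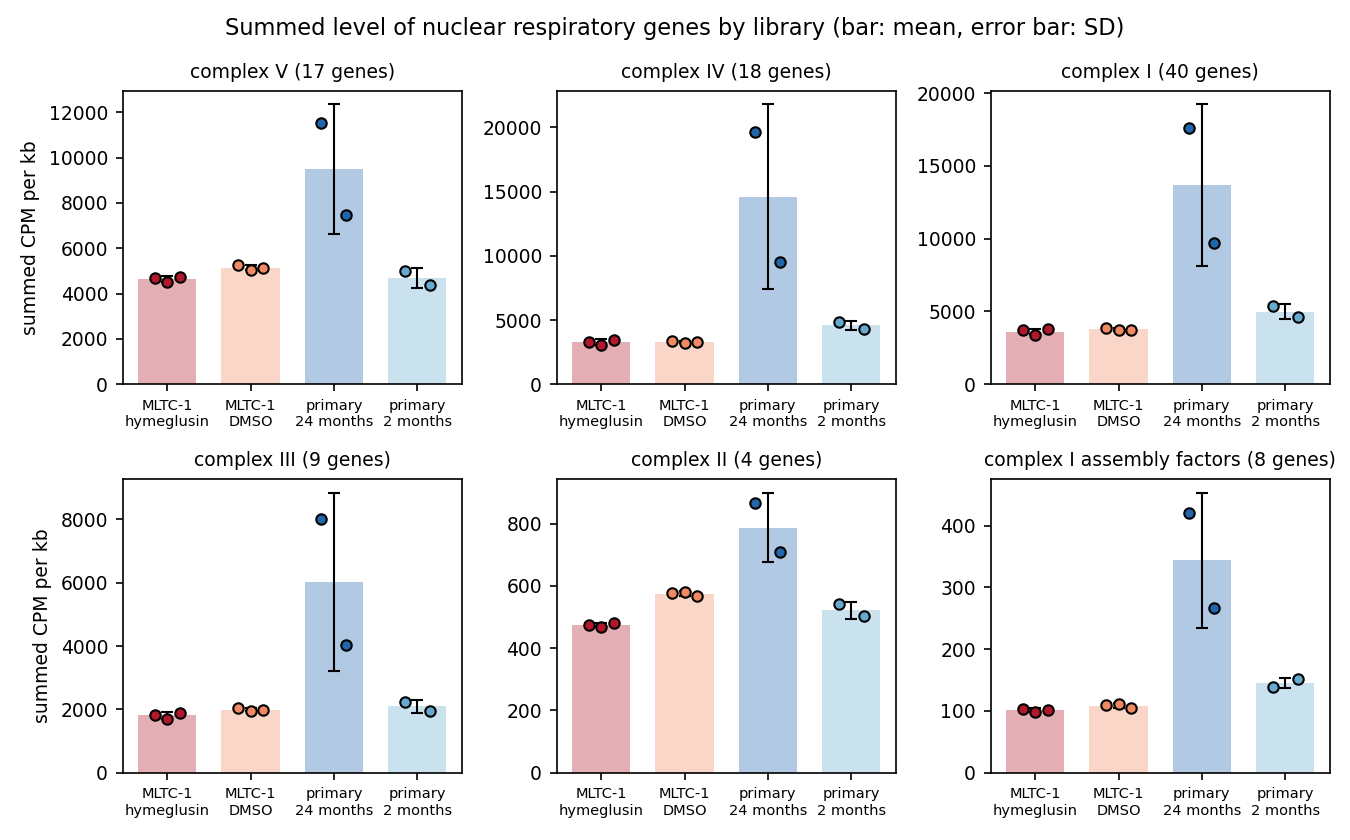
Summed level (CPM per kb) of the members of each complex, 1 point per library, with the group mean as a bar and the SD as an error bar. The 24-month libraries lie highest in all 6 panels, and the hymeglusin libraries lie below the DMSO libraries most clearly in complex II (468 to 480.5 against 567 to 582).

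Among single members, Atp5b, the catalytic beta subunit of complex V, had the highest level per kb in MLTC-1 cells, with 1047 ± 33 CPM per kb with hymeglusin and 1144 ± 10.1 with DMSO (SD, n = 3 each). In primary cells the highest was Cox6a1, a complex IV subunit, with 8186 and 3379 CPM per kb at 24 months and 1583 and 1402 at 2 months. Cox6a1 and Cox4i1, the regulatory subunit of complex IV, followed Atp5b in both MLTC-1 groups. Atp5g3, which encodes the membrane ring of complex V, was among the top 5 in all 4 groups. Uqcrq of complex III and Cox8a of complex IV were in the top 5 at 24 months by rank, at 1541 ± 908 and 1457 ± 647 CPM per kb (SD, n = 2). Ndufs5 had 0 to 2 counts in every library and was tested nowhere. The table also holds its pseudogene copy Ndufs5-ps, and how the counting divided reads between such copies is not known here. Atp5c1, Atp5k, Cox7c and Ndufa12 have pseudogene copies too, and their values are uncertain to that extent.

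The first comparison asked what hymeglusin did to these genes in MLTC-1 cells. Of the 96 members, 90 passed the filter on low counts, and 46 fell and 2 rose (edgeR quasi-likelihood test, adjusted p under 0.05). Of all 12873 genes tested, 24.5% fell and 23.8% rose. The median log2 fold change was -0.16 over the 90 members and 0.01 over all genes tested. The changes were small: the values of the 90 members ran from -0.62 to 1.11 on the log2 scale. When libraries were scaled by total counts, the median of all genes moved to 0.11, the members called were 33 lower and 8 higher, and 70% of all calls were higher, against 49.4% with TMM scaling. In 1 fit of all 10 libraries, which shares its spread with the primary cells, 2 members were called lower and 1 higher. The 8 Leydig cell markers also moved with hymeglusin: 5 fell and 1 rose, and their sum was 6666, 6529 and 6682 CPM with hymeglusin and 9181, 8933 and 8949 CPM with DMSO. Their part in the members' values was not tested.

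**Figure D2:**
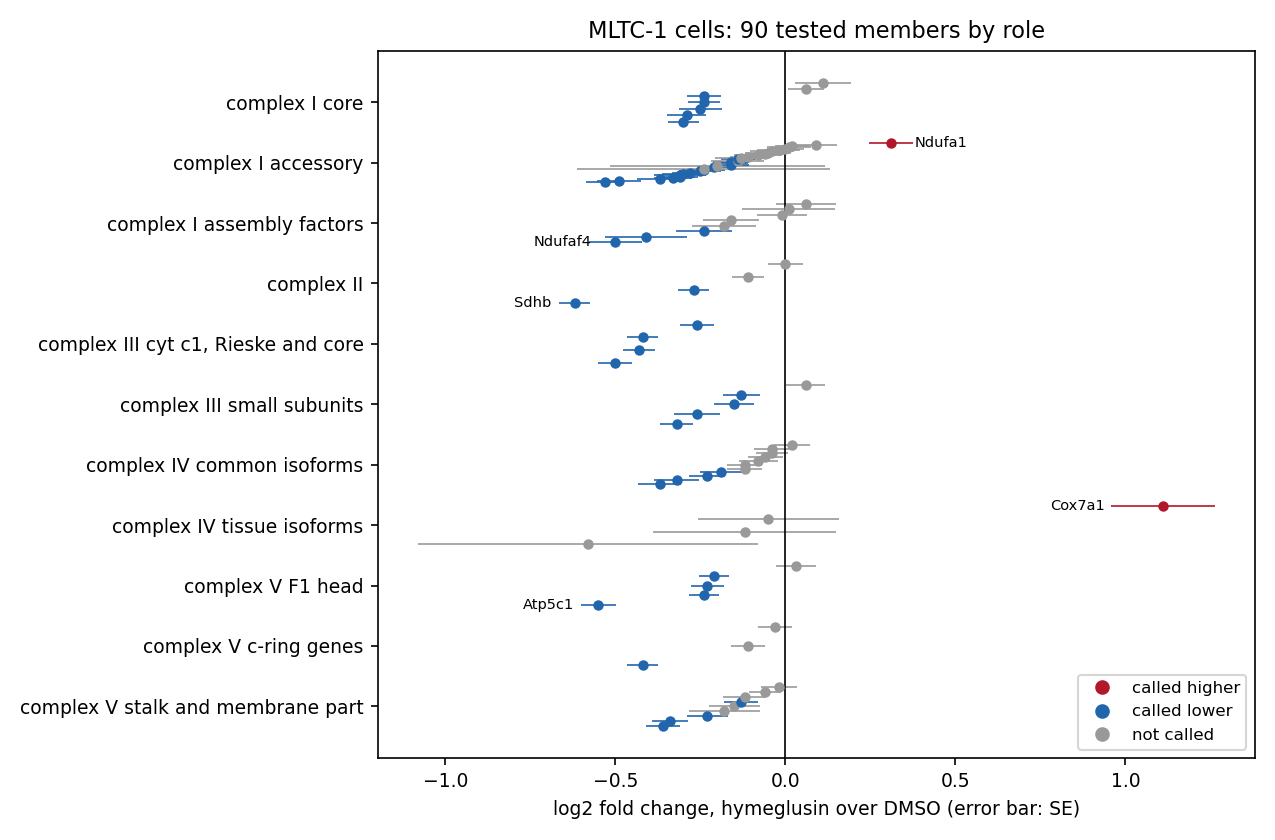
Log2 fold change of hymeglusin over DMSO in MLTC-1 cells for the 90 tested members, by role, with the SE as an error bar and the call by colour. All 4 members in the row of cytochrome c1, Rieske and core proteins of complex III lie left of 0, and Cox7a1 (1.11) lies far to the right of all others.

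In complex I, which oxidises NADH, 20 of 37 tested subunits fell and 1 rose. Of the 7 tested core subunits, which carry the flavin and iron-sulfur clusters, 5 fell, among them Ndufs1 and Ndufv2, which fell by 0.3 and 0.29 on the log2 scale. Ndufs1, the largest core subunit, had 208, 206 and 200.2 CPM with hymeglusin and 257, 251 and 247 CPM with DMSO. These groups did not overlap, and the log2 fold change was -0.3 (SE 0.0465, adjusted p = 1.87e-06). Ndufv1, which binds NADH, had 133, 120.1 and 138 CPM with hymeglusin and 124, 123 and 128 CPM with DMSO. Its groups overlapped (log2 fold change 0.06, adjusted p = 0.348).

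The accessory subunit Ndufv3 fell most in complex I, with 82.8, 79.7 and 92.1 CPM with hymeglusin and 129, 118 and 121 CPM with DMSO (log2 fold change -0.53, SE 0.0563, adjusted p = 7.46e-10). Ndufb4, an accessory subunit of the membrane arm, had 44.1, 44.8 and 39.8 CPM with hymeglusin and 64.8, 57.5 and 59 CPM with DMSO (log2 fold change -0.49, adjusted p = 5.57e-08). Every hymeglusin library lay below every DMSO library for both genes. Ndufa1, a small accessory subunit encoded on the X chromosome, went the other way. It had 59.8, 51.3 and 59.5 CPM with hymeglusin and 46.5, 43.7 and 47.9 CPM with DMSO, with no overlap (log2 fold change 0.31, SE 0.0649, adjusted p = 0.000171). Ndufa1 overlaps another gene in the annotation, and without the strand setting of the counting its reads cannot be told from that gene's reads. The same holds for Uqcrq and Ndufa4l2. For Ndufa12, replicate 2 of hymeglusin stood apart, with 43.4 CPM against 82.9 and 83.3 in the other two hymeglusin libraries and 66.8 to 91.9 with DMSO, and the gene was not called (adjusted p = 0.651).

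Of the 8 assembly factors of complex I, 3 fell. Ndufaf4, an assembly factor of the early steps, had 20.1, 21.3 and 19.1 CPM with hymeglusin and 29.5, 27.7 and 28 CPM with DMSO, and these groups were well apart (log2 fold change -0.5, SE 0.0773, adjusted p = 1.88e-06). Ndufaf2 and Ndufaf8 fell by 0.41 and 0.24 on the log2 scale. The other 5 were not called, with log2 fold changes of -0.18 to 0.06.

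In complex II, succinate dehydrogenase, the subunits split. Sdhb, the iron-sulfur subunit at chr4:140961271-140979198 (GRCm38, plus strand), fell most of all members, with 220, 221 and 223 CPM with hymeglusin and 349.7, 338 and 332 CPM with DMSO. The hymeglusin libraries lay within a few CPM of each other and far below the lowest DMSO library (log2 fold change -0.62, SE 0.0459, adjusted p = 1.43e-13). Sdha, the flavoprotein that oxidises succinate, had 413, 397 and 413 CPM with hymeglusin and 467, 498 and 506 CPM with DMSO, also with no overlap (log2 fold change -0.27, adjusted p = 1.07e-05). The membrane anchors were not called: Sdhc had a log2 fold change of -0.11 (adjusted p = 0.0637) and Sdhd of 0 (SE 0.0513, adjusted p = 0.968).

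In complex III, which passes electrons to cytochrome c, 8 of 9 members fell, among them all 4 of the larger subunits. Uqcrfs1, the Rieske iron-sulfur protein, had 101, 98.6 and 96 CPM with hymeglusin and 141, 139.9 and 136 CPM with DMSO (log2 fold change -0.5, SE 0.0501, adjusted p = 2.64e-10). Uqcrc1, a core protein, had 209, 205 and 204 CPM with hymeglusin and 284, 271 and 276 CPM with DMSO (log2 fold change -0.43, adjusted p = 1.25e-09). Cyc1, cytochrome c1, had 333, 327 and 349 CPM with hymeglusin and 465, 444 and 440.4 CPM with DMSO (log2 fold change -0.42, adjusted p = 1.91e-09). In these 3 genes every hymeglusin library lay below every DMSO library. The core protein Uqcrc2 fell by 0.26 on the log2 scale. Uqcr11, a small subunit, was the member not called, at 161, 140.5 and 173 CPM with hymeglusin and 155, 147 and 153 CPM with DMSO.

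In complex IV, cytochrome c oxidase, 4 of 15 tested members fell (26.7%, against 24.5% of all genes tested) and 1 rose. The members that fell were the common subunits Cox5a, Cox6b1, Cox7b and Cox7c, with log2 fold changes of -0.19, -0.23, -0.37 and -0.32. Cox7b had 46.7, 44.9 and 49.4 CPM with hymeglusin and 64.6, 56.8 and 60.7 CPM with DMSO, with no overlap (adjusted p = 8.14e-06). Cox4i1, the most abundant tested subunit of complex IV by CPM, was not called. It had 575, 548 and 611 CPM with hymeglusin and 599.9, 569 and 612 CPM with DMSO (log2 fold change -0.04, SE 0.0476, adjusted p = 0.547). Cox6a1, Cox7a2 and Cox8a had log2 fold changes of -0.06, -0.08 and 0.02, with adjusted p of 0.369, 0.275 and 0.816. Ndufa4, counted above with complex I, fell to 129.5, 120.4 and 121 CPM with hymeglusin, against 143, 137 and 134 CPM with DMSO (log2 fold change -0.16, adjusted p = 0.00779). That call was lost under total-count scaling, the offset for length and GC content and the fit of all 10 libraries, where the highest adjusted p was 0.806.

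Cox7a1, the heart and muscle form of subunit 7a at chr7:30184171-30186030 (GRCm38, plus strand), rose most of all members. It had 7.52, 7.1 and 7.21 CPM with hymeglusin and 2.72, 3.42 and 3.91 CPM with DMSO. The lowest hymeglusin library lay well above the highest DMSO library (log2 fold change 1.11, SE 0.153, adjusted p = 1.81e-07). Over the 17 settings that tested it, its adjusted p stayed between 1.6e-11 and 0.0418. Per kb it was the lesser form: Cox7a1 had 18.8, 17.8 and 18.4 CPM per kb with hymeglusin, while the common form Cox7a2 had 173, 148 and 153.

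In complex V, the ATP synthase, 9 of 17 members fell. Of the 5 members of the F1 head, where ATP is made, 4 fell. Atp5c1, its gamma shaft at chr2:10056030-10080510 (GRCm38), fell most, with 326, 320.1 and 312 CPM with hymeglusin and 511, 459 and 436 CPM with DMSO (log2 fold change -0.55, SE 0.0505, adjusted p = 2.26e-11). Atp5a1 and Atp5b, the alpha and beta subunits, fell by 0.24 and 0.21 on the log2 scale. In all 3 genes the groups did not overlap. The 3 genes of the membrane ring encode the same mature protein and differed in their calls. Atp5g3 fell (385, 376 and 371 CPM with hymeglusin, 505, 499.6 and 513 CPM with DMSO, log2 fold change -0.42, adjusted p = 7.07e-10), while Atp5g1 and Atp5g2 had log2 fold changes of -0.03 and -0.11 and were not called (adjusted p = 0.695 and 0.0727). Atp5g2 was called lower with a block for replicate number, with the offset for length and GC and without replicate 2 of DMSO, and its adjusted p ran from 0.0232 to 1 over 18 settings. The difference between the ring genes was not itself tested. Of the 9 members of the stalk and membrane part, 4 fell.

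Promoter motifs were spread over both outcomes. Among members that fell with hymeglusin, the NRF1, ETS and YY1 motifs were in 5, 8 and 5 of 38 windows. Among members not called, they were in 6, 10 and 5 of 33 windows. Both members that rose held 0 matches.

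Other genes of the pathway gave a mixed picture with hymeglusin. Of all genes tested, 24.5% fell and 23.8% rose. Of the tested electron carriers and dehydrogenases that feed ubiquinone, 7 of 7 fell, with Etfdh (log2 fold change -0.57) and Etfa (-0.49), which pass on electrons from fatty acid oxidation, first by adjusted p. Of 9 tested genes for the carriers of ADP, ATP and phosphate, porins and uncoupling proteins, 6 fell and 1 rose. The ADP/ATP carrier Slc25a5 (-0.47) and the phosphate carrier Slc25a3 (-0.37) were first among those that fell, and the uncoupling protein Ucp2 rose (0.18). Of 15 regulators of respiratory genes, 7 fell, among them Ppara (-0.45) and Yy1 (-0.3), and Epas1 rose (0.13). Of 42 assembly factors with other symbols, 12 fell, with Coa5 and Tmem70 first, and 3 rose, with Cox19 and Cmc2 first. Of 13 genes of ubiquinone synthesis, 4 fell and 2 rose, and of 14 genes for the mitochondrial genome, 3 fell and 2 rose, with Tefm (0.98) first among those that rose. Among assembly factors, ubiquinone synthesis and mitochondrial genome genes, the share that fell lay near that of all genes tested.

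The second comparison set primary Leydig cells of mice aged 24 months against those aged 2 months. Of the 96 members, 94 were tested, and 62 rose and 0 fell (edgeR quasi-likelihood test; 0 members were lower at an unadjusted p under 0.05, and 0 were called lower with DESeq2 or limma-voom). Of all 16381 genes tested, 13.5% rose and 15.1% fell. The median log2 fold change was 1.3 over the members and -0.01 over all genes. Most members have short transcripts, however, and short transcripts as a class were higher at 24 months. Among the 4460 other tested genes whose transcripts were 427 to 1734 bases long, the range that holds most members, 34.3% rose and 1.97% fell, with a median of 0.97. Of the 74 members in that range, 54 rose (73%), with a median of 1.36.

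Within bands of length, the members' median fold change was close to that of other genes below 750 bases, and the members were called more often. Between 500 and 750 bases, 27 of 30 members rose with a median of 1.46, and 346 of 634 other genes (54.6%) rose with the same median. Between 250 and 500 bases the medians were 1.56 over 15 members and 1.59 over 235 other genes. Between 1000 and 1500 bases they were again close, 0.9 over 17 members and 0.89 over 1906 other genes. In other bands the members' medians were higher: 1.55 over 14 members and 1.24 over 848 other genes between 750 and 1000 bases, and 0.74 over 13 members and 0.29 over 3935 other genes between 1500 and 2500 bases. Members are also abundant, and among 1168 other genes within the members' ranges of both length and mean abundance 46.9% rose. Over the 94 members, Spearman's correlation of length with fold change was -0.49, and over 16126 other genes it was -0.62, as a description over genes of the same 4 libraries.

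**Figure D3:**
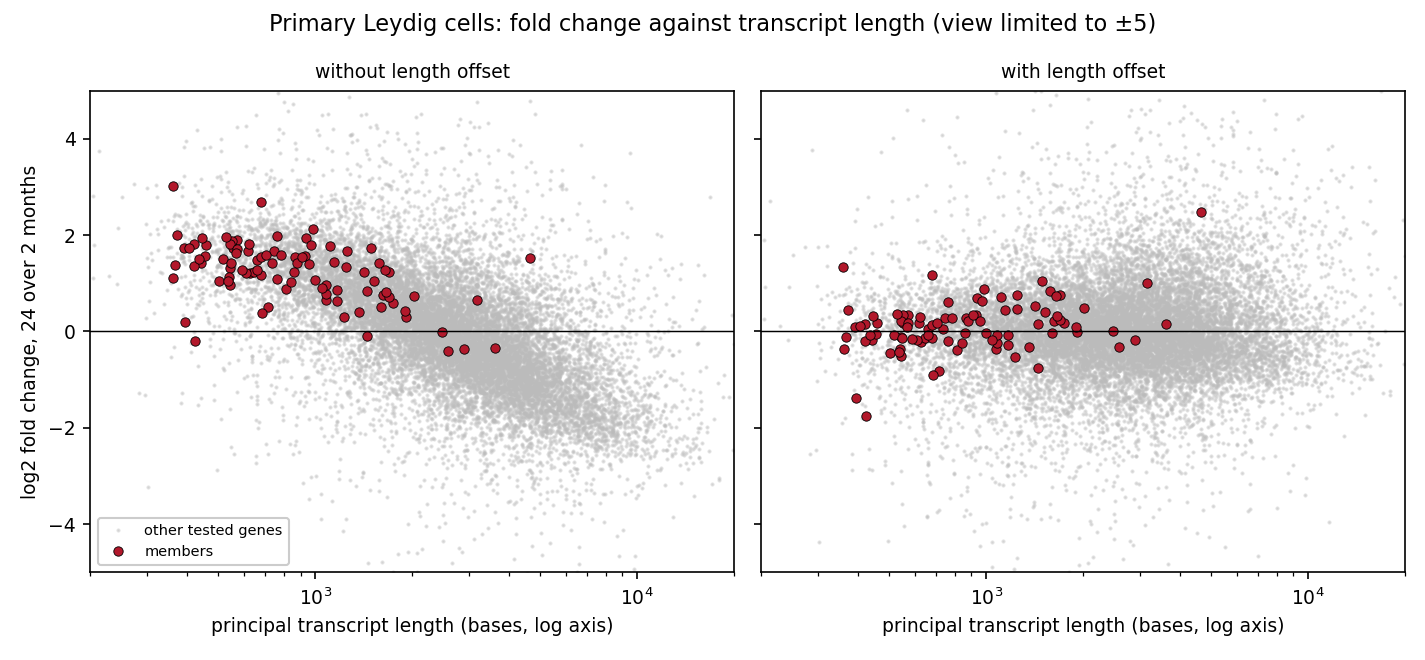
Log2 fold change of 24 over 2 months against the length of the principal transcript, for members (red) and other tested genes (grey), without and with an offset for the length trend. The red points follow the grey band down with length, and with the offset their median is 0.1.

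**Figure D4:**
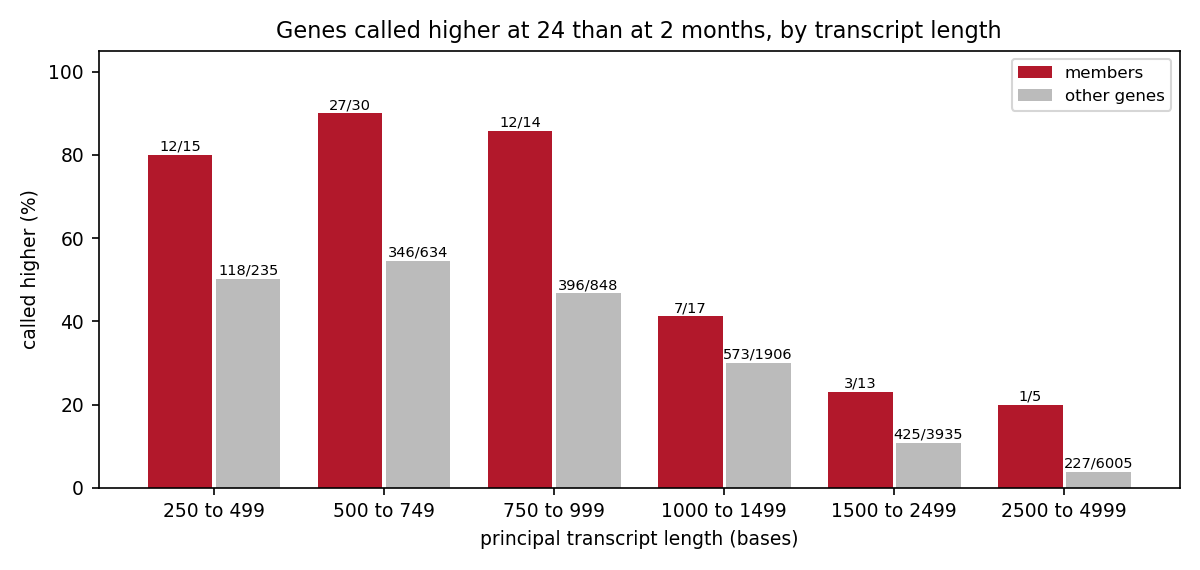
Share of genes called higher at 24 than at 2 months in 6 bands of transcript length, for members and for other tested genes, with counts above the bars. From the second band on both shares drop with length, from 90% of members and 54.6% of other genes down to 20% and 3.78% in the last.

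With an offset fitted per library to the trend on transcript length, 2 members were called higher and 1 lower, and the members' median log2 fold change was 0.1. In the same fit, 1234 of all genes were called higher and 954 lower. The 2 members higher under the offset were Atp5g1 and Sdhc, whose principal transcripts are long (4660 and 3171 bases) while coding transcripts of 596 and 815 bases are also annotated. The RefSeq gene for Atp5g1 spans 2902 bases, less than that principal transcript, so its offset and its level per kb rest on an uncertain length. The member called lower was Cox7a1 (log2 fold change -1.39, adjusted p = 0.00881), which without the offset had 42 and 18.5 CPM at 24 months, against 28.9 and 23.4 CPM at 2 months, overlapping, with a log2 fold change of 0.21 (adjusted p = 0.734). With the longest transcript as the length, 10 members were called higher and 1 lower. With total-count scaling, 8 members were called higher, the median of all genes moved to -0.21 and 29% of all calls were higher, against 47.3%.

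The count of calls also moved when 1 library was left out. Each such fit has 1 library at 1 age, which is assumed to vary like the pair at the other age, and the 24-month pair differed far more than the 2-month pair. Without replicate 1 of the 24-month cells 71 members were called higher, and without replicate 2 of them 81. Without replicate 1 of the 2-month cells 2 were called higher, and without replicate 2 of them 1. Against the mean of the 2-month libraries, the members' median log2 fold change was 1.56 in replicate 1 of the 24-month cells and 0.9 in replicate 2, and 89 and 88 of the 94 members were above 0. Over other genes in the members' range of length these medians were 1.03 and 0.65, and over all genes tested -0.07 and 0.02. Replicate 1 exceeded replicate 2 in 82 of the 94 members at 24 months, with a median ratio of 1.68, and in 86 at 2 months, with a median ratio of 1.21. Such counts were not made for other genes. In simulated data with the spread of these 4 libraries, 100 of 16079 genes were changed 2 fold and 100 were changed 4 fold. Of these, 6% and 78% were called. Far more genes were called in the real data, which eases the adjusted threshold, so these shares may be too low for it. A member not called here may still have changed by such amounts.

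By role, all 5 small subunits of complex III, 10 of 11 common and 5 of 6 tissue isoforms of complex IV, 25 of 32 accessory subunits of complex I and 2 of 3 ring genes of complex V rose. Of the stalk and membrane part of complex V, 5 of 9 rose. The shares were lower in the core subunits of complex I (3 of 7), the F1 head (2 of 5), the assembly factors (3 of 8), complex II (1 of 4) and the larger subunits of complex III (1 of 4). Of all genes tested, 13.5% rose. Among other genes of 427 to 1734 bases 34.3% rose, and among those between 500 and 750 bases 54.6%. The sets were not matched for transcript length, and differences between these 11 sets were not tested. Under the length offset, their medians ran from -0.21 to 0.31 on the log2 scale.

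Ndufs8, a core subunit of complex I with iron-sulfur clusters, rose most among members whose mean log2 CPM was 2 or more. It had 706 and 196 CPM at 24 months, against 118 and 90.2 CPM at 2 months. Replicate 1 at 24 months was far above the others, and replicate 2 was still above both 2-month libraries (log2 fold change 2.12, SE 0.546, adjusted p = 0.0231). Ndufs7, another such core subunit, had 314 and 135 CPM at 24 months, against 60.7 and 52.3 CPM at 2 months (log2 fold change 1.99, adjusted p = 0.014). Ndufa7, an accessory subunit, had 611 and 251 CPM at 24 months, against 119.8 and 102 CPM at 2 months (log2 fold change 1.96, adjusted p = 0.016). In both genes the 24-month libraries lay above the 2-month libraries. With the length offset, Ndufs8, Ndufs7 and Ndufa7 had log2 fold changes of 0.89, 0.61 and 0.36, with adjusted p of 0.148, 0.218 and 0.481.

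At the other end of complex I, Ndufs1, with a transcript of 2590 bases, had 94.7 and 133 CPM at 24 months, against 156 and 144 CPM at 2 months. Both 24-month libraries lay below both 2-month libraries, but the difference was not past the threshold (log2 fold change -0.4, SE 0.329, adjusted p = 0.374). Sdha, the flavoprotein of complex II with a transcript of 2900 bases, had 389 and 599 CPM at 24 months, against 691 and 585 CPM at 2 months, overlapping (log2 fold change -0.37, adjusted p = 0.442). Its partner Sdhb, with 1142 bases, had 548 and 288 CPM at 24 months, against 160.3 and 146 CPM at 2 months and rose (log2 fold change 1.45, adjusted p = 0.0249). With the length offset its log2 fold change was 0.45 (adjusted p = 0.357).

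In complexes III to V, Uqcr11 had 637 and 263 CPM at 24 months, against 133 and 100.3 CPM at 2 months (log2 fold change 1.95, adjusted p = 0.0167). Cox6a1 had 4337 and 1805 CPM at 24 months, against 898 and 747 CPM at 2 months (log2 fold change 1.9, SE 0.452, adjusted p = 0.0184). Cox8a, the common form of the smallest subunit of complex IV, had 977 and 514 CPM at 24 months, against 229 and 179 CPM at 2 months (log2 fold change 1.87, adjusted p = 0.0137). In these 3 genes the 24-month libraries lay above the 2-month libraries, with replicate 1 highest. Atp5k, a small membrane subunit of complex V, had 181 and 87.8 CPM at 24 months, against 43.5 and 23.2 CPM at 2 months (log2 fold change 2.01, adjusted p = 0.0162). With the length offset, Uqcr11, Cox6a1, Cox8a and Atp5k had log2 fold changes of 0.31, 0.35, 0.33 and 0.45. None of them was called in that edgeR fit (adjusted p = 0.555, 0.483, 0.503 and 0.423). Atp5a1, the alpha subunit, had 737 and 812 CPM at 24 months, against 831 and 741 CPM at 2 months, and these ranges overlapped (log2 fold change -0.02, SE 0.32, adjusted p = 0.967). Atp5b and Atp5g3 had log2 fold changes of 0.31 and 0.51 and were not called.

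The 3 isoforms known from testis separated the primary cells from MLTC-1 cells. Cox8c had 454 and 199.6 CPM per kb at 24 months and 73.4 and 109.5 at 2 months, and 0 counts in the 3 DMSO libraries. Cox6b2 had 311 and 139 CPM per kb at 24 months and 52.6 and 79.4 at 2 months, and at most 1.12 in MLTC-1 cells. Cox7b2 had 80.7 and 69.4 CPM per kb at 24 months, 23.2 and 35.4 at 2 months and 3.85 to 4.94 in MLTC-1 cells. All 3 were higher at 24 months in the edgeR test, with log2 fold changes of 1.79, 1.73 and 1.32 (adjusted p = 0.0195, 0.0215 and 0.0237), and had adjusted p of 0.749, 0.76 and 0.849 with the length offset. Of the 12 spermatid markers, 8 rose with age, against 13.5% of all genes tested, and 5 were at 0 in every DMSO library. Prm1 had 2164 and 1024 CPM at 24 months, against 285 and 373 CPM at 2 months. Akap4 moved less, with 395 and 431 CPM against 194 and 297 CPM. The 10 spermatogonia and spermatocyte markers summed to 174 and 226 CPM at 24 months, against 159.5 and 265 CPM at 2 months, and 1 of them rose. These marker values are without the length offset. The part of these germ cell markers in the result was not tested.

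**Figure D5:**
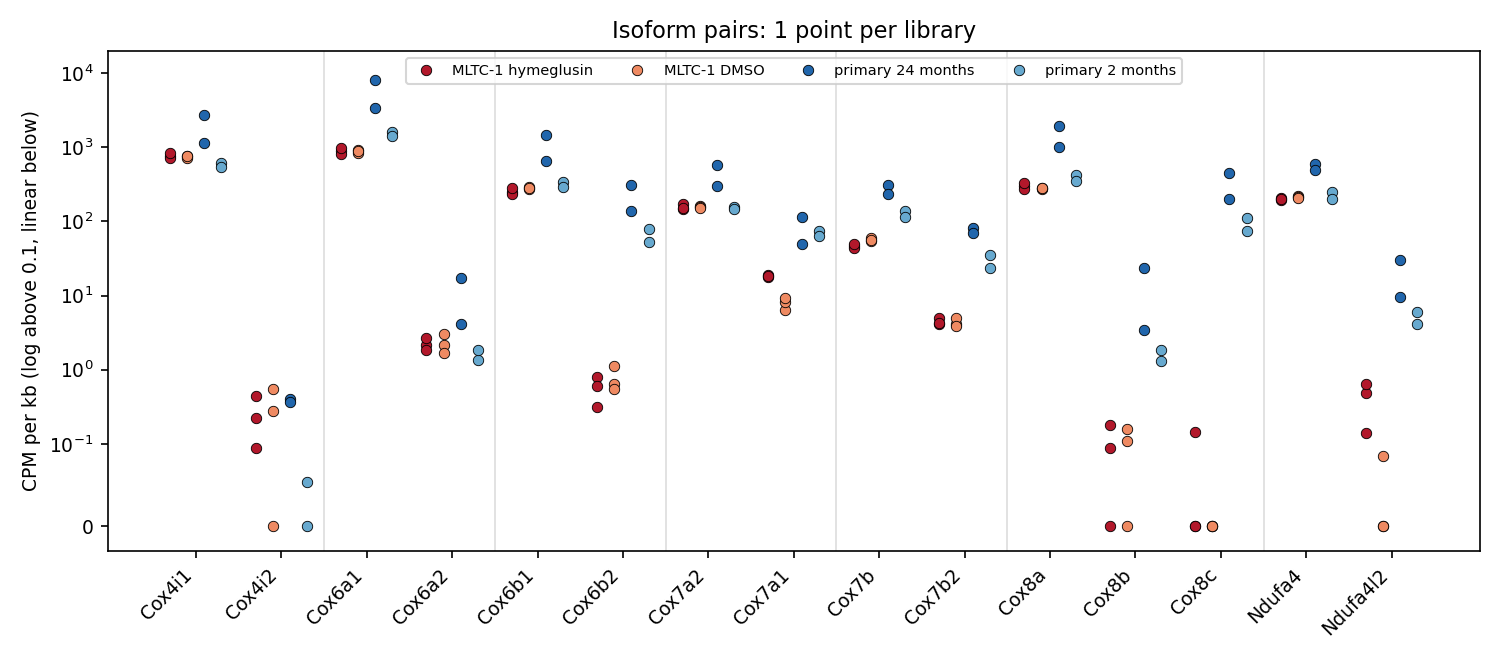
Level (CPM per kb) of complex IV isoforms and of Ndufa4 and Ndufa4l2, 1 point per library, on an axis that is logarithmic above 0.1 and linear below. Cox6b2 and Cox8c lie between 52.6 and 454 in primary cells and at or below 1.12 in MLTC-1 cells; Cox7a1 lies higher with hymeglusin than with DMSO.

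The heart and muscle forms Cox6a2 and Cox8b were low throughout: at 24 months Cox6a2 had 17.2 and 4.17 CPM per kb and Cox8b 23.7 and 3.45, and at 2 months they had 1.33 and 1.86, and 1.83 and 1.31. In both, replicate 1 at 24 months stood far above the rest. They rose with age in the edgeR test (log2 fold changes 2.68 and 3.02, adjusted p = 0.0231 and 0.032). With the length offset they had 1.17 and 1.34 (adjusted p = 0.165 and 0.215), and both calls were also lost without replicate 1 of the 24-month cells. Ndufa4l2, a relative of Ndufa4 known to be induced by low oxygen, had 26.3 and 8.34 CPM at 24 months, against 3.8 and 5.15 CPM at 2 months (log2 fold change 1.94, adjusted p = 0.0288), and 0.7 (adjusted p = 0.281) with the length offset. Cox4i2, known from lung and low oxygen, had at most 14 counts in any library and was not tested. Markers of other cells differed between the ages too: 10 macrophage markers summed to 164 and 163 CPM at 24 months, against 23.7 and 25.4 CPM at 2 months, and 7 neutrophil markers to 15.7 and 104 CPM at 24 months, against 0.741 and 0.946 CPM at 2 months, where 6 of the 7 were at 0. Of the macrophage markers 5 rose and of the neutrophil markers 6 rose. Cd14 made most of the macrophage sum, with 97.6 and 110.3 CPM at 24 months, against 9.01 and 8.28 CPM at 2 months. Adgre1 was lower at 24 months, with 0.438 and 0.266 CPM against 0.576 and 0.946 CPM at 2 months. Csf1r had 2.26 and 2.22 CPM at 24 months, against 1.61 and 2.21 CPM at 2 months. The 6 markers of peritubular myoid and smooth muscle cells summed to 179.8 and 90.2 CPM at 24 months, against 28.9 and 45 CPM at 2 months, and 2 of 5 tested rose. Most of this sum was Actg2, with 159 and 84.1 CPM at 24 months, against 24.9 and 40.1 CPM at 2 months. Myh11 had 0.73 and 1.15 CPM at 24 months, against 0.617 and 0.789 CPM at 2 months. Des, the muscle filament desmin, had 9.06 and 1.06 CPM at 24 months, against 0 and 0.749 CPM at 2 months. The 8 endothelial markers summed to 31.2 and 14.1 CPM at 24 months, against 17.5 and 16.9 CPM at 2 months, and 2 of 5 tested rose. Within that sum, Cdh5 was lower at 24 months, with 12.3 and 8.56 CPM against 15.9 and 15.2 CPM at 2 months. Among the primary cell libraries, the sums of both lists were highest in replicate 1 at 24 months, as were Cox6a2 and Cox8b. The Leydig and spermatid marker sums were highest in that library too, while the neutrophil sum was higher in replicate 2. At 24 months, 82 of the 94 tested members were higher in replicate 1 than in replicate 2, and at 2 months 86 were. The myoid and smooth muscle sum was higher in replicate 2 at 2 months. Such counts were not made for other genes. The part of these markers in the members' values was not tested.

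Of all genes tested, 13.5% rose and 15.1% fell with age. Outside the members, 11 of 42 assembly factors with other symbols rose with age and 2 fell, with Pet100 (log2 fold change 2.16) first among those that rose and Coa5 (-1.16) first among those that fell. Under the length offset 4 rose and 0 fell. The 9 electron carriers and dehydrogenases had a median log2 fold change of 0.3. Of 13 genes of ubiquinone synthesis 2 rose, of 14 genes for the mitochondrial genome 1 rose (Slirp) and 2 fell (Lrpprc and Polg), and of 10 carriers 1 fell (Ucp2). Of 17 regulators 1 rose (Myc) and 4 fell, with Ppara first (log2 fold change -2.27, adjusted p = 0.00565). Under the length offset the calls were 2 higher among electron carriers and dehydrogenases, 2 higher among genes for the mitochondrial genome and 2 higher and 2 lower among regulators, and the calls in ubiquinone synthesis and among carriers were lost.

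The third comparison set DMSO-treated MLTC-1 cells against primary cells of 2-month-old mice. It shares the DMSO libraries with the first comparison and the 2-month libraries with the second. Tumour line, culture, isolation, content of other testis cells and age cannot be told apart in this comparison. Of 93 tested members, 24 were higher and 55 lower in MLTC-1 cells. Of all 16092 genes tested, 34.4% were higher and 48.5% lower. The median log2 fold change was -0.33 over the members and -0.27 over all genes. With the length offset, the members called were 84 higher and 4 lower, and 8661 of all genes were higher and 5411 lower, while the median of all genes moved to 0.49.

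Cyc1 was the member highest in MLTC-1 cells by fold, with 448, 429 and 425 CPM in MLTC-1 cells and 164 and 159.9 CPM in primary cells (log2 fold change 1.42, SE 0.0583, adjusted p = 4.67e-08). Sdhb had 337, 327 and 320.4 CPM in MLTC-1 cells and 165 and 164 CPM in primary cells, and Atp5c1 493, 444 and 421 CPM in MLTC-1 cells and 246 and 224 CPM in primary cells. In all 3 genes, the lowest MLTC-1 library lay far above the highest primary library. Atp5g2 of the complex V ring and the assembly factor Ndufaf5 were also higher (log2 fold changes 0.83 and 0.79). These 5 genes were higher under the length offset too, but so were 84 of the 93 tested members, with a median of 1.77. That result therefore does not set the 5 genes apart from other members.

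Among the members lower in MLTC-1 cells whose mean log2 CPM was 2 or more, the testis isoforms Cox8c and Cox6b2 had the largest differences. Cox8c had 0 counts in the 3 DMSO libraries and 34.5 and 52.5 CPM in primary cells, at least 354-fold lower when each DMSO library is set at a floor of 3 counts. Cox6b2 had 0.369, 0.633 and 0.314 CPM in MLTC-1 cells and 29.8 and 46 CPM in primary cells (log2 fold change -6.36, adjusted p = 1.23e-07). Both were also lower under the length offset, where Cox6b2 had a log2 fold change of -3.55. All 12 tested spermatid markers and all 9 tested spermatogonia and spermatocyte markers were lower in MLTC-1 cells too, against 48.5% of all genes tested. The part of germ cell transcripts in the values of these isoforms was not tested. Cox7a1 and Cox7b2 had log2 fold changes of -3.11 and -2.76 and of -0.14 and 0.08 with the offset. Ndufa1 had 44.8, 42.3 and 46.2 CPM in MLTC-1 cells and 178 and 161 CPM in primary cells (log2 fold change -1.93, adjusted p = 2.45e-08), and Ndufc2, an accessory subunit, had a log2 fold change of -1.72. Both turned under the offset, to 1.03 and 0.84.

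Over all genes tested, 34.4% were higher and 48.5% lower in MLTC-1 cells. By complex, lower calls in MLTC-1 cells prevailed in complex IV (13 of 17, with 1 higher) and complex I (25 of 38, with 8 higher). Complex V had 7 higher and 7 lower of 17, complex III 4 higher and 5 lower of 9, complex II 2 higher and 2 lower of 4, and the assembly factors 2 higher and 3 lower of 8. Under the length offset all 17 members of complex V and all 9 of complex III were called higher, and 54 of the 93 tested members changed direction. Of the other lists, MLTC-1 cells had 4 electron carriers and dehydrogenases higher and 4 lower of 9, 11 assembly factors higher and 20 lower of 42, 11 regulators higher and 4 lower of 17, 7 of 10 carriers lower, 2 genes of ubiquinone synthesis higher and 5 lower of 13, and 6 genes for the mitochondrial genome higher and 5 lower of 14. These counts turned with the offset as well: under it, 33 assembly factors were higher and 3 lower, 7 carriers higher and 3 lower, 12 genes of ubiquinone synthesis higher and 1 lower, 6 electron carriers and dehydrogenases higher and 3 lower, 15 regulators higher and 2 lower, and 10 genes for the mitochondrial genome were higher.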

How the data were processed

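The authors deposited 1 table of counts by gene symbol for 10 libraries, whole numbers with no normalization applied. The submitters' processing notes list mm10, featureCounts 2.0.6, HISAT2 2.2.1, fastp 0.23.4 and FastQC 0.12.1, and the strand setting is not given in the sources used here. Members and lists were chosen with earlier results of these data known. Each comparison had its own fit in edgeR 4.0.16 (R 4.3.3): filterByExpr with a minimum count of 10 and a minimum total of 15, TMM, the robust two-sided quasi-likelihood F-test, and Benjamini-Hochberg adjustment over all genes tested, at a threshold of 0.05. SE is the log2 fold change divided by the square root of F. CPM in a comparison are scaled by the TMM factors of its fit, and CPM for levels and marker lists by those over all 10 libraries.

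Lengths are those of the principal GENCODE M21 transcript. The plan named the longest transcript, which was kept as an alternative added after seeing the data. The length offset was a loess curve per library (span 0.3, 2 passes). Other alternatives were scaling by RLE, upper quartile or total counts, DESeq2 1.42.0, limma-voom 3.58.1, other count filters, a replicate block, an offset for length and GC, 1 fit of all libraries, and each library left out. A gene at 0 was set at a floor of 3 counts per library for a lower bound, which covers counting error only. On simulated counts for hymeglusin, 98% of genes changed 2 fold were called. By rule, the text names the 6 called members of largest fold per direction (mean log2 CPM of 2 or more, groups apart), a fixed set of subunits and isoforms, the 5 highest per group, and up to 2 genes per direction of each other list. Members named outside it, as where a count was 5 or fewer, and the promoters of Uqcrc1, Cox6a1 and Cox6b2, were chosen after their values were seen. Values of 1 member that the rule names are not reported here.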

Additional observations from a re-analysis of the deposited data

How the results depend on the processing

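With hymeglusin, members called lower numbered 33 to 51 against 46, apart from 1 fit of all 10 libraries (2). Those called higher numbered 2 or 3, but 8 with total counts, 1 with the 10 CPM filter and 1 in the fit of all libraries. Leaving out 1 library gave 40 to 48 lower and 2 to 6 higher, the 6 without hymeglusin replicate 2. With age, 62 higher became 8 with total counts, 2 under the length offset, 3 under that for length and GC and 10 under that for the longest transcript, and 1 to 81 without 1 library. 0 lower became 1, 3 and 1 with those 3 offsets, and 0 to 3 without 1 library. For MLTC-1 over primary cells, 24 higher became 84, 86 and 78 with those offsets and 12 in the fit of all libraries (19 to 27 without 1 library), and 55 lower became 4, 4 and 7 (50 to 58). The share of other genes higher with age was 24.6% for lengths of 250 to 2500 bases, against 34.3%, and the summed ratio of MLTC-1 to primary cells was 0.991 on plain CPM. The cause was not tested.

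Under the length offset, 39 of 94 members changed sign with age, 21 of them among the 62 called, and 54 of 93 in MLTC-1 against primary cells, 48 of them among those called. Examples past the threshold with or without an offset, among members described above for that comparison, were, with age, Cox7a1 (-1.39 for length, -1.51 for length and GC, -1.53 for the longest transcript), Cox7b2 (-0.12, and -0.26 for the longest), Atp5g3 (-0.81 for length and GC), and with length and GC Uqcrq (-0.09). In MLTC-1 against primary cells, in the order length, length and GC, longest, examples were Cox7b2 (0.08, 0.72, 0.98), Ndufa1 (1.03, 1.32, 1.9), Ndufc2 (0.84, 1.02, 1.57), and Cox7a1 for the longest only (0.7). Same-numbered replicates correlated between -0.09 and 0.05. Between the ages, the values for same and different numbers mirror each other (-0.09 and 0.09), because each age has 2 libraries. That check therefore cannot decide whether the numbers pair those libraries. With hymeglusin, the values were -0.03 to 0.05 for same numbers and -0.07 to 0.07 for different ones. The replicate block gave 51 lower with hymeglusin, 62 higher with age, and 21 higher and 53 lower for MLTC-1. With age, 2 libraries a group limit what can be called.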
